A study of Mus musculus with 6 samples.

Results

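The genes described here make heme, break it down, and take up, store, move or sense iron, including a few that build iron-sulfur clusters. They are 35 named genes of the 18193 genes on the array, listed as a functional group with earlier results of these data known. Each was represented by its probe set of a single gene symbol with the highest mean over the 6 arrays, and 33 of the 35 had such a probe set. Trf, which encodes transferrin, and Ftl1, which encodes ferritin light chain, had none and are not reported. Alas2, the erythroid enzyme of the first heme step, was too dim to be tested, which left 32 tested genes.

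Heme is made from glycine and succinyl-CoA by a chain of enzymes that starts and ends in the mitochondrion, and it is broken down by heme oxygenases to biliverdin, carbon monoxide and iron. Cells take up iron bound to transferrin through the transferrin receptor, reduce it in the endosome, and use it for heme and iron-sulfur clusters, store it in ferritin or export it through ferroportin. Iron regulatory proteins bind the mRNAs of the receptor and of ferritin and set both according to the iron in the cytosol. Developing granulocytes need heme for myeloperoxidase and the NADPH oxidase, and withholding iron from microbes is part of their function.

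The cells were sorted from the femur and tibia marrow of HdcGFP mice on a C57BL/6 background, labelled female, with no age given. In these mice green fluorescent protein reports Hdc, which encodes the enzyme that makes histamine, and all sorted cells were GFP+/hi and positive for CD11b, a myeloid integrin. The Gr1 antigen, an epitope of Ly6G and Ly6C, separated them into Gr1lo (3 arrays) and Gr1hi cells (3 arrays); the labels name no treatment. C57BL/6 mice are known to carry a defective allele of Slc11a1, so its transcript level does not stand for working transporter in this strain. The question is which heme and iron genes distinguish Gr1hi from Gr1lo cells, and every difference is Gr1hi minus Gr1lo in log2 probe set values.

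The labels do not say whether replicates came from separate animals, so p-values cover only how these samples vary, and 3 arrays per group limit the precision. In sorted bulk cells, fewer cells of a type and less RNA per cell cannot be told apart. Correlations between arrays ran from 0.991 to 0.996 within groups and from 0.873 to 0.914 between groups. Hdc rose from 10.86 ± 0.12 to 12.33 ± 0.30 and Itgam, which encodes CD11b, from 11.28 ± 0.18 to 12.16 ± 0.11 (SD, n = 3 per group). The Y-linked gene Eif2s3y lay between 9.02 and 10.66 on all 6 arrays, against the female label, and Xist was at 10.95 and 10.14 on the replicate 3 arrays and at most 2.43 on the other 4. In the description of Gr1lo replicate 3, a mark after the reporter's name may be a hyphen or a minus sign; by its title and markers it belongs to the group and was used there. The counts for the heme and iron genes, the further genes and the markers are therefore also given without both replicate 3 arrays. The highest value of the control probe sets for absent transcripts was 2.77, and values at or under it are called the absent level here.

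Of the 32 tested genes, 26 passed limma's test at a Benjamini-Hochberg adjusted p under 0.05, with 13 higher and 13 lower in Gr1hi. That is 81.2% of them, and 40.6% in each direction. Among all 12732 tested genes 56.4% passed, with 24.6% higher and 31.8% lower. At a change of at least 2-fold as well, 17 of the 32 passed (53.1%), against 30% of all tested genes. In the same 26 genes every array of one group lay above every array of the other, which held for 65.5% of all tested genes. The median difference was 0.02 among the 32 genes and 0.03 among all tested genes, and the median absolute difference was 1.25 and 0.47. As deposited, the genes thus moved in both directions in equal number, and their median absolute difference was larger than that of all tested genes. The gap in calls was narrower with a filter at the 60th percentile (89.3% against 72% of all genes). With arrays centred on the median of tested genes it was 90.6% against 83.7%. The genes were chosen with earlier results known, so the gap is not a test of the group.

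These counts depend on how the arrays are scaled. Centring the arrays on the median of the tested genes moved the median difference of all genes from 0.03 to 0.70. Then 20 of the 32 genes were higher and 9 lower, against 65.5% and 18.2% of all genes. Those 20 included every gene that had missed the threshold as deposited. Centring on the hybridization controls moved the median difference of all genes to -0.23, and then 11 were higher and 13 lower, against 14.6% and 38.1% of all genes. Without both replicate 3 arrays 12 were higher and 13 lower, against 21.5% and 29.4% of all genes, and in the role groups only the call of Ireb2 was lost. In all, 18 genes (9 higher and 9 lower) kept the same call in every alternative in which they were tested. The plot of values on each array shows the 32 tested genes by role.

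**Figure D1:**
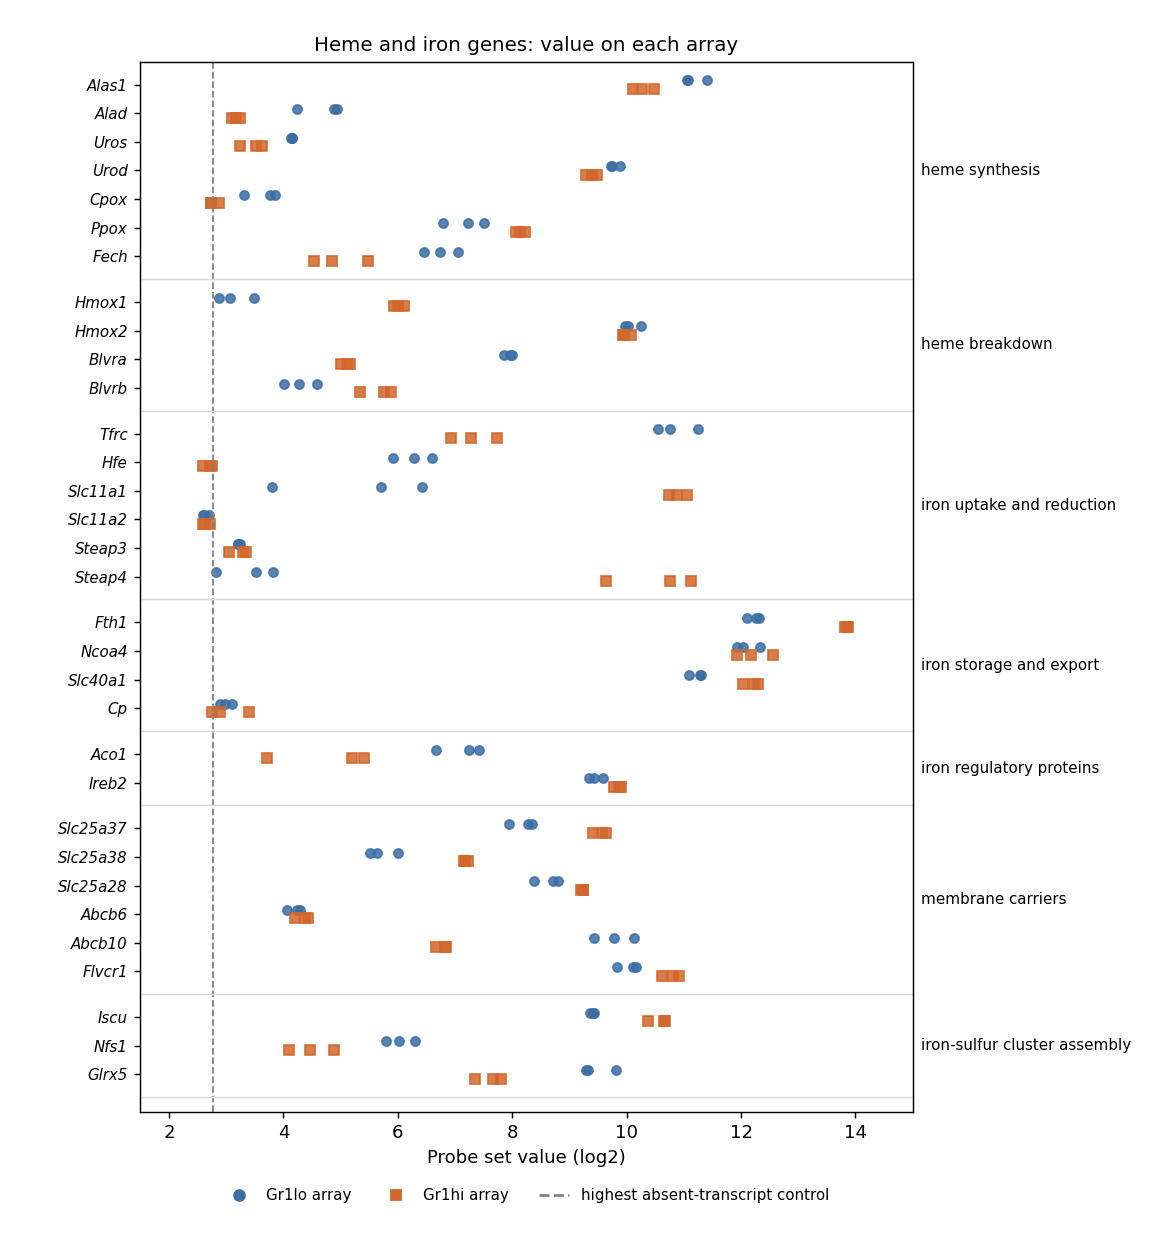
Probe set values (log2, horizontal axis) of the 32 tested heme and iron genes, by role, with 3 Gr1lo arrays (circles) and 3 Gr1hi arrays (squares) per gene; the dashed line at 2.77 is the highest control for an absent transcript. The groups stand furthest apart in Steap4 and Slc11a1, which are higher in Gr1hi, and in Hfe and Tfrc, which are lower, while Slc11a2 lies below the line on all 6 arrays.

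Heme synthesis genes were mostly lower in Gr1hi: of 7 tested, 6 fell and 1 rose, against 31.8% and 24.6% of all tested genes. With arrays centred on the median of tested genes 2 were lower and 2 higher, against 18.2% and 65.5% of all tested genes. Fech, which encodes ferrochelatase, the enzyme that inserts iron into protoporphyrin, had the greatest difference of the 7. Its values were 6.74, 7.05 and 6.46 in Gr1lo and 5.48, 4.54 and 4.85 in Gr1hi. Every Gr1hi array lay below every Gr1lo array, and the mean fell from 6.75 ± 0.30 to 4.95 ± 0.48, a difference of -1.79 (SE 0.273, limma adjusted p = 3.50e-04). Alad, which encodes the enzyme that joins the first pathway intermediate into porphobilinogen, read 4.94, 4.89 and 4.24 in Gr1lo and 3.16, 3.10 and 3.24 in Gr1hi. All Gr1hi arrays were close to the absent level, and the mean fell by 1.52 (SE 0.202, limma adjusted p = 1.45e-04).

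Alas1, the rate-limiting enzyme of the pathway outside erythroid cells, fell from 11.18 ± 0.20 to 10.29 ± 0.18, a difference of -0.89 (SE 0.132, limma adjusted p = 3.10e-04). Alas2 lay between 1.68 and 2.17 on all 6 arrays, at the absent level. Thus the housekeeping form of the first enzyme was the form measured in both groups. Cpox, which encodes coproporphyrinogen oxidase, fell by 0.86 (limma adjusted p = 0.00102), and 2 of its 3 Gr1hi arrays were at the absent level. Uros and Urod, the enzymes that close the porphyrin ring and trim its side chains, fell by 0.68 and 0.39 (limma adjusted p = 0.00351 and 0.0136). After centring on the median of tested genes, Alas1, Cpox and Uros no longer passed, at -0.21, -0.19 and -0.01, and Urod turned to 0.28. Urod also missed the threshold without Gr1lo replicate 1, at -0.34 (limma adjusted p = 0.0650).

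Ppox, which encodes protoporphyrinogen oxidase, the step just before ferrochelatase, went the other way. It read 7.22, 6.79 and 7.50 in Gr1lo and 8.13, 8.07 and 8.22 in Gr1hi, a rise of 0.97 (SE 0.195, limma adjusted p = 0.00201). Neighbouring steps of the pathway thus differed in direction between the groups. The second Ppox probe set was dim, at 2.99 ± 0.17 in Gr1lo and 3.49 ± 0.16 in Gr1hi, and was higher by 0.50 with no overlap. A further Ppox probe set was at the absent level on all 6 arrays.

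Of the heme synthesis genes, Alad, Urod and Uros hold an E-box, the letters CACGTG, before a start site. Without regard to direction of change, the bases for Alad and Urod are shown, where a long enough stretch lies outside RefSeq genes. They are from RefSeq on GRCm38.p6, read 5′ to 3′ on the minus strand, with the E-box in capitals. The Alad stretch is chr4:62520064-62520313, all 250 bases before the outer of its 2 listed start sites, with the E-box at -105 to -100. For Urod it is chr4:116994437-116994663, 227 bases that end at -24, with the E-box at -49 to -44.
Alad: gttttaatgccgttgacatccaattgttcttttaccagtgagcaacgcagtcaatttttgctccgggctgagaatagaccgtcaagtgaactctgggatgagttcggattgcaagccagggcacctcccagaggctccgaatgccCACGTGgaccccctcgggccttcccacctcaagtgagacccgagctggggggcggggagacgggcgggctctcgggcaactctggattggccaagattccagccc
Urod: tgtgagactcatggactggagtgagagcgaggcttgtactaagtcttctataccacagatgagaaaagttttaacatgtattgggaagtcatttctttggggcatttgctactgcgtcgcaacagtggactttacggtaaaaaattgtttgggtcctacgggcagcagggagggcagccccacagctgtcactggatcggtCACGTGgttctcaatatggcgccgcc
RefSeq windows were found for 28 of the 35 genes. On either strand, an E-box was in 4 of their 42 windows (9.52%), those of Alad, Urod and Uros, against 6.02% of all 32851 windows of that length. No E-box letters were in the windows of the other synthesis genes in that table.

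Heme breakdown genes split. Hmox1, the inducible heme oxygenase, read 3.48, 2.88 and 3.06 in Gr1lo, not far above the absent level, and 5.93, 6.10 and 6.00 in Gr1hi. The mean rose from 3.14 ± 0.31 to 6.01 ± 0.09, a difference of 2.87 (SE 0.199, limma adjusted p = 2.46e-06). Hmox2, the constitutive form, was at 10.09 ± 0.15 and 9.99 ± 0.08, a difference of -0.10 (95% interval -0.35 to 0.16, limma adjusted p = 0.485). It missed the threshold, and after centring on the median of tested genes it read 0.58 (limma adjusted p = 7.90e-04).

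The biliverdin reductases moved in opposite directions. Blvra, which encodes the main enzyme that turns biliverdin into bilirubin, read 7.95, 8.0 and 7.86 in Gr1lo and 5.17, 5.01 and 5.11 in Gr1hi. It fell by 2.84 (SE 0.164, limma adjusted p = 8.55e-07), with a spread of at most 0.08 (SD) in either group. Blvrb, a flavin and biliverdin reductase, read 4.28, 4.01 and 4.58 in Gr1lo and 5.35, 5.89 and 5.77 in Gr1hi. It rose by 1.38 (SE 0.226, limma adjusted p = 5.73e-04), and the groups did not overlap. The small plots of related genes set these pairs side by side.

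**Figure D2:**
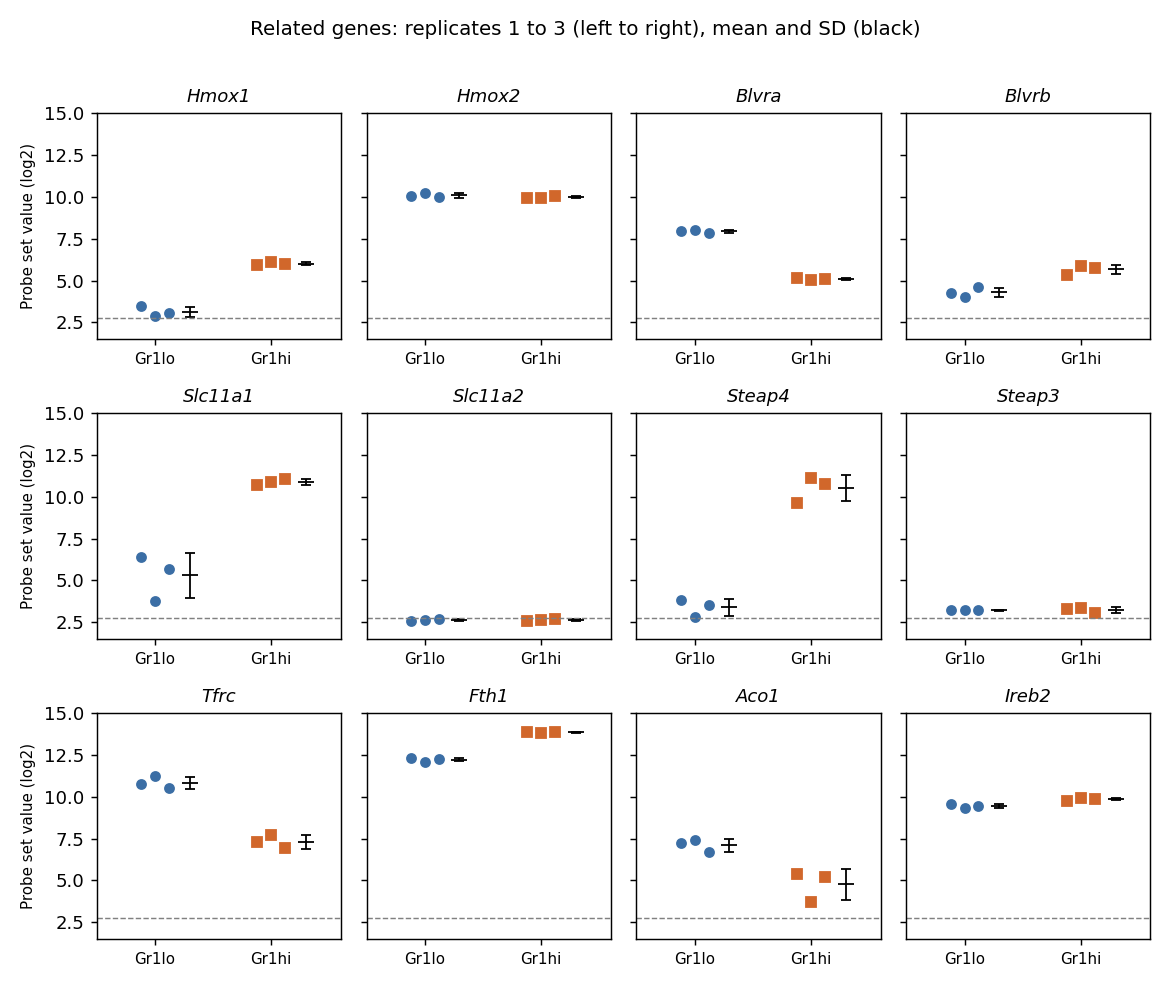
Probe set values (log2, vertical axis) on the 3 Gr1lo and 3 Gr1hi arrays for 12 genes, with the group mean and SD in black and the highest absent-transcript control as a dashed line. Hmox1 and Blvrb are higher in Gr1hi and Blvra is lower; Hmox2 and Steap3 missed the threshold as deposited and are higher with arrays centred on the median of tested genes, and Slc11a2 lies at the absent level throughout.

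Genes of iron uptake and reduction differed widely in both directions: of 6 tested, 2 rose and 2 fell, against 24.6% and 31.8% of all tested genes. After centring on the median of tested genes 4 were higher and 2 lower, against 65.5% and 18.2% of all tested genes. Tfrc, which encodes the transferrin receptor, read 10.76, 11.25 and 10.55 in Gr1lo and 7.28, 7.74 and 6.92 in Gr1hi. The groups lay far apart, and the mean fell from 10.85 ± 0.36 to 7.32 ± 0.41, a difference of -3.54 (11.6-fold, SE 0.234, limma adjusted p = 1.91e-06). Hfe, which encodes a class I-like partner of the transferrin receptor, read 6.29, 6.61 and 5.92 in Gr1lo and 2.72, 2.59 and 2.74 in Gr1hi. All Gr1hi arrays of Hfe were at the absent level, so its fall is a bound for this probe set as deposited. Against that level it was at least 11.3-fold lower in Gr1hi (group means 6.27 ± 0.34 and 2.68 ± 0.08, limma adjusted p = 8.22e-07). The bound does not hold across other scalings or the mean of its probe sets.

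A stretch before a Tfrc start site is shown because it holds the ACGTG core of the hypoxia response element beside TGACGT, part of the palindromic cAMP response element. It is from RefSeq on GRCm38.p6, chr16:32608890-32608919 on the plus strand, -232 to -203 from one of 2 listed start sites, with both motifs in capitals.
Tfrc: gtgtACGTGcggaaggaagTGACGTagatc
On either strand, ACGTG, which lies within the E-box letters too, was in 10 of the 42 windows (23.8%) against 16.6% of all windows. TGACGT was in 1 of 42 (2.38%) against 6.47%.

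Slc11a1, which encodes the metal transporter NRAMP1 of phagosomes, read 6.43, 3.79 and 5.70 in Gr1lo and 10.73, 10.89 and 11.06 in Gr1hi. The Gr1lo arrays were spread widely, with replicate 2 lowest, and the Gr1hi arrays were close together. The mean rose from 5.31 ± 1.36 to 10.89 ± 0.16, a difference of 5.59 (SE 0.539, limma adjusted p = 1.87e-05), and without Gr1lo replicate 2 it was 4.83 (limma adjusted p = 2.44e-07). Slc11a2, which encodes DMT1, the endosomal iron transporter, was between 2.59 and 2.72 on all 6 arrays, at the absent level. Its difference was 0.02 (95% interval -0.17 to 0.21, limma adjusted p = 0.879).

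Steap4, a metalloreductase known to respond to inflammatory signals, had the greatest difference of the 32 genes. It read 3.81, 2.83 and 3.52 in Gr1lo and 9.65, 11.12 and 10.76 in Gr1hi. The mean rose from 3.39 ± 0.51 to 10.51 ± 0.77, a difference of 7.12 (SE 0.383, limma adjusted p = 5.71e-07), from just above the absent level to a high value. Its second probe set was much dimmer, at 2.39 ± 0.19 and 3.27 ± 0.46. Steap3, the ferrireductase of the transferrin cycle in erythroid cells, was at 3.22 ± 0.02 and 3.23 ± 0.16, a difference of 0.00 (95% interval -0.27 to 0.27, limma adjusted p = 0.979).

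Of the storage and export genes, 2 of 4 tested rose and none fell, against 24.6% and 31.8% of all tested genes. After centring on the median of tested genes all 4 were higher, against 65.5% of all tested genes. Fth1, which encodes ferritin heavy chain with its ferroxidase site, read 12.32, 12.10 and 12.26 in Gr1lo and 13.86, 13.81 and 13.87 in Gr1hi. It rose by 1.62 (3.07-fold, SE 0.0712, limma adjusted p = 2.27e-07), and its second probe set was higher by 1.87. Slc40a1, which encodes the iron exporter ferroportin, read 11.29, 11.09 and 11.31 in Gr1lo and 12.23, 12.03 and 12.30 in Gr1hi. It rose by 0.96 (SE 0.0988, limma adjusted p = 2.75e-05), and both its probe sets were apart in this direction. Higher Fth1 and Slc40a1 thus stood beside lower Tfrc on the same arrays.

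Ncoa4, the receptor that sends ferritin to the lysosome, was at 12.10 ± 0.20 and 12.22 ± 0.31, a difference of 0.12 (95% interval -0.23 to 0.48, limma adjusted p = 0.523). Cp, which encodes ceruloplasmin, a ferroxidase of plasma, lay between 2.75 and 3.39, near the absent level. Its difference was 0.02 (95% interval -0.35 to 0.38, limma adjusted p = 0.938).

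The genes of the iron regulatory proteins moved apart. Aco1, which encodes IRP1, a cytosolic aconitase when it carries its cluster, read 7.24, 7.42 and 6.67 in Gr1lo and 5.41, 3.72 and 5.21 in Gr1hi. The mean fell by 2.33 (SE 0.418, limma adjusted p = 9.99e-04), with Gr1hi replicate 2 lowest, and without that array it fell by 1.80 (limma adjusted p = 7.50e-04). Ireb2, which encodes IRP2, read 9.59, 9.35 and 9.42 in Gr1lo and 9.77, 9.90 and 9.86 in Gr1hi. It rose by 0.39 (SE 0.112, limma adjusted p = 0.0141), but read 0.37 (limma adjusted p = 0.0944) without both replicate 3 arrays and 0.13 (limma adjusted p = 0.536) after centring on the hybridization controls.

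Of the membrane carriers of iron and heme, 4 of 6 tested rose and 1 fell, against 24.6% and 31.8% of all tested genes. After centring on the median of tested genes 5 were higher and 1 lower, against 65.5% and 18.2% of all tested genes. Slc25a37, which encodes mitoferrin 1, an importer of iron into mitochondria, read 8.35, 8.27 and 7.95 in Gr1lo and 9.65, 9.42 and 9.57 in Gr1hi. It rose by 1.35 (SE 0.145, limma adjusted p = 3.58e-05). Slc25a38, the mitochondrial glycine carrier that feeds the first heme step, read 5.51, 5.64 and 6.00 in Gr1lo and 7.16, 7.17 and 7.22 in Gr1hi. It rose by 1.47 (SE 0.187, limma adjusted p = 1.12e-04), so the carriers of iron and of glycine were higher where Alas1 and Fech were lower.

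Slc25a28, which encodes mitoferrin 2, rose by 0.59 (SE 0.141, limma adjusted p = 0.00540), but read 0.33 (limma adjusted p = 0.145) after centring on the hybridization controls. Flvcr1, described as a heme exporter, rose from 10.03 ± 0.18 to 10.78 ± 0.15, a difference of 0.74 (SE 0.125, limma adjusted p = 6.44e-04). Abcb10, a transporter of the inner mitochondrial membrane known to bind mitoferrin 1 and ferrochelatase, went the other way. It read 9.77, 10.14 and 9.44 in Gr1lo and 6.84, 6.82 and 6.67 in Gr1hi. It fell by 3.01 (8.05-fold, SE 0.185, limma adjusted p = 1.27e-06), and the groups lay far apart. Abcb6, a porphyrin transporter, was at 4.20 ± 0.11 and 4.34 ± 0.12, a difference of 0.14 (95% interval -0.23 to 0.50, limma adjusted p = 0.497).

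**Figure D3:**
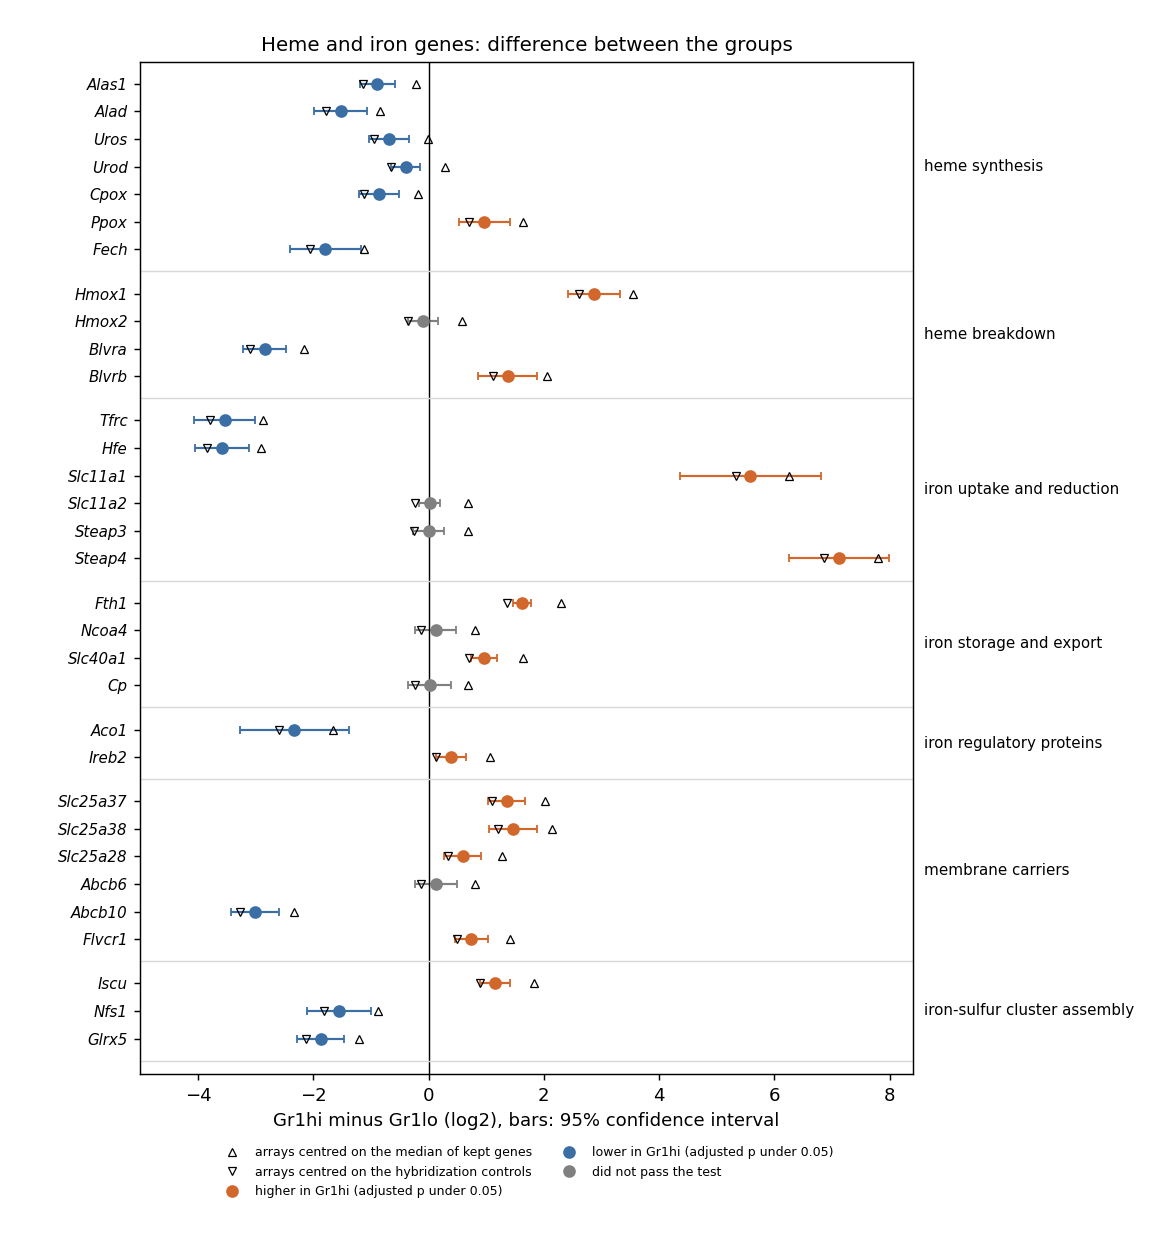
Gr1hi minus Gr1lo difference (log2, horizontal axis) with its 95% confidence interval for the 32 tested heme and iron genes, by role; colours mark genes that passed limma's test in each direction and open symbols the values under the other scalings. Of the 26 that passed, 13 lie right and 13 left of zero; Urod and Hmox2 lie right of zero with arrays centred on the median of tested genes.

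The genes of iron-sulfur cluster assembly among the 32 were 3, of which 1 rose and 2 fell, against 24.6% and 31.8% of all tested genes. Iscu, the scaffold on which clusters are built, read 9.41, 9.37 and 9.43 in Gr1lo and 10.66, 10.37 and 10.65 in Gr1hi. It rose by 1.16 (SE 0.114, limma adjusted p = 2.06e-05). Nfs1, the cysteine desulfurase that supplies the sulfur, read 5.80, 6.30 and 6.03 in Gr1lo and 4.10, 4.47 and 4.89 in Gr1hi. It fell by 1.55 (SE 0.245, limma adjusted p = 4.41e-04), so the scaffold and its sulfur donor differed in direction. Glrx5, the glutaredoxin that passes clusters on, read 9.33, 9.81 and 9.29 in Gr1lo and 7.80, 7.66 and 7.35 in Gr1hi. It fell by 1.87 (SE 0.184, limma adjusted p = 2.05e-05).

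The rest of the pathway was read from 64 further genes of heme, iron and iron-sulfur biology, of which 47 were tested; 5 rose and 20 fell (53.2% against 56.4% of all tested genes), with the same counts without both replicate 3 arrays. Most of the falls were in iron-sulfur assembly, where 13 of 16 tested fell and 1 rose, against 31.8% and 24.6% of all tested genes. The median difference there was -1.03, against 0.03 for all genes. With arrays centred on the median of tested genes 8 were lower and 3 higher, against 18.2% and 65.5% of all tested genes. Gfer, a sulfhydryl oxidase of the mitochondrial intermembrane space, fell by 3.74 (limma adjusted p = 5.10e-06). Nubp1, a cytosolic cluster scaffold, fell by 3.48 (limma adjusted p = 1.30e-06), and Fdx1, a ferredoxin, fell by 3.43 (limma adjusted p = 2.39e-06). Bola3, a cluster delivery factor, fell by 3.13 (limma adjusted p = 6.54e-06). Nubpl, which serves complex I, was the exception and rose by 1.64 (limma adjusted p = 6.25e-05).

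**Figure D4:**
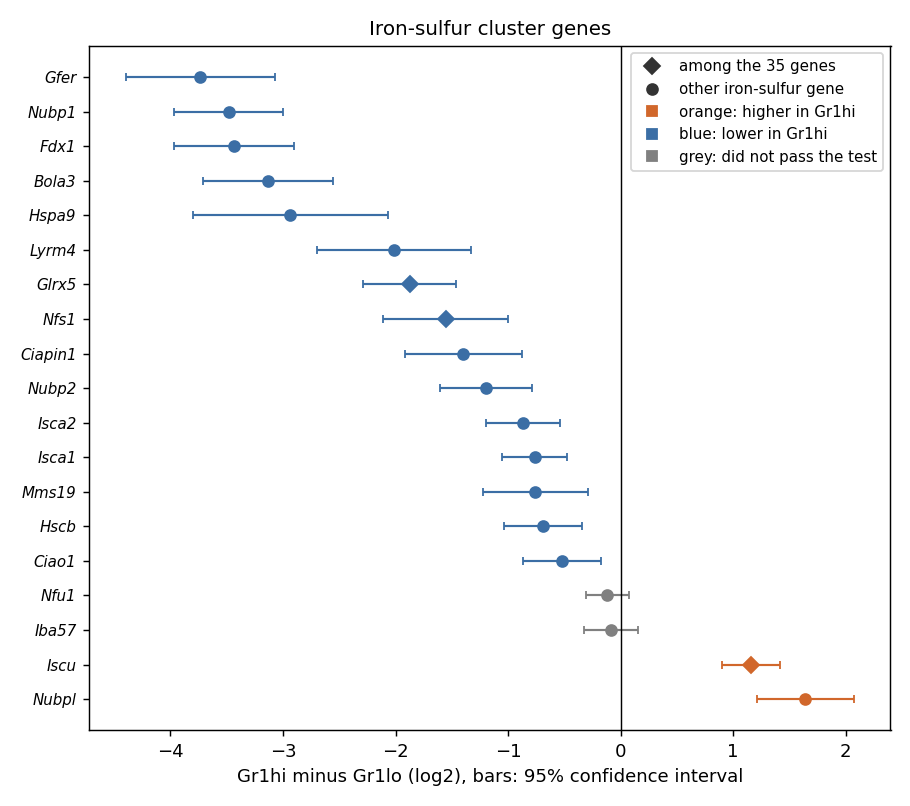
Gr1hi minus Gr1lo difference (log2, horizontal axis) with its 95% confidence interval for 19 tested iron-sulfur cluster genes, the 3 among the 35 genes as diamonds and the 16 others as circles. Only Iscu and Nubpl are higher in Gr1hi in the values as deposited, 15 genes are lower, and Nfu1 and Iba57 missed the threshold. With arrays centred on the median of tested genes 3 of the 16 others are higher, against 65.5% of all tested genes.

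Other heme genes gave 2 rises and 2 falls among 13 tested, against 24.6% and 31.8% of all tested genes. Bach1, the heme-binding repressor of Hmox1, rose from 10.61 ± 0.16 to 12.03 ± 0.08 (difference 1.42, limma adjusted p = 2.95e-06), so repressor and target transcripts were both higher in Gr1hi. Hp, which encodes haptoglobin, rose by 0.41 (limma adjusted p = 4.99e-04). Hebp1, a heme-binding protein, fell by 2.79 (limma adjusted p = 1.54e-05), and Slc48a1, the heme transporter of lysosomes, fell by 1.97 (limma adjusted p = 3.13e-05).

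Other iron genes gave 2 rises and 5 falls among 18 tested, against 24.6% and 31.8% of all tested genes. Fbxl5, the iron-sensing subunit of the ligase that degrades IRP2, rose from 9.88 ± 0.33 to 12.12 ± 0.17 (difference 2.24, limma adjusted p = 3.19e-06). Pcbp1, a chaperone that delivers iron to ferritin, fell by 1.05 (limma adjusted p = 2.54e-06). Cisd2, an iron-sulfur protein of the endoplasmic reticulum, fell by 1.76 (limma adjusted p = 5.70e-05), and Slc39a8, a metal importer, fell by 1.80 (limma adjusted p = 2.85e-04). Lcn2, a granule protein that binds bacterial siderophores, did not pass, with a difference of 0.11 (95% interval -0.01 to 0.23, limma adjusted p = 0.101). Neither did Ltf, which encodes lactoferrin, the iron-binding protein of secondary granules, with 0.16 (95% interval -0.02 to 0.34, limma adjusted p = 0.121).

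Several genes can be read from more than 1 probe set. The 33 genes had 70 probe sets of a single symbol, and 13 genes had several above the absent level on at least 3 arrays. In 10 of the 13 all such probe sets were apart in 1 direction, and Ncoa4 and Urod had probe sets whose groups overlapped. Fech was the gene with opposite directions: besides -1.79, 2 other probe sets differed by -1.59 and -2.06, and 1 read 2.96, 3.18 and 3.17 in Gr1lo and 4.18, 4.37 and 3.80 in Gr1hi, higher by 1.01. Its fall thus rests on the 3 brighter probe sets. The second Tfrc probe set was lower by 1.24, from 3.48 ± 0.33 to 2.24 ± 0.22. Averaging all probe sets of a gene, dim ones included, gave smaller differences for some genes, with 4.0 for Steap4, -1.89 for Hfe, -1.71 for Tfrc and -1.09 for Aco1, all still called.

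**Figure D5:**
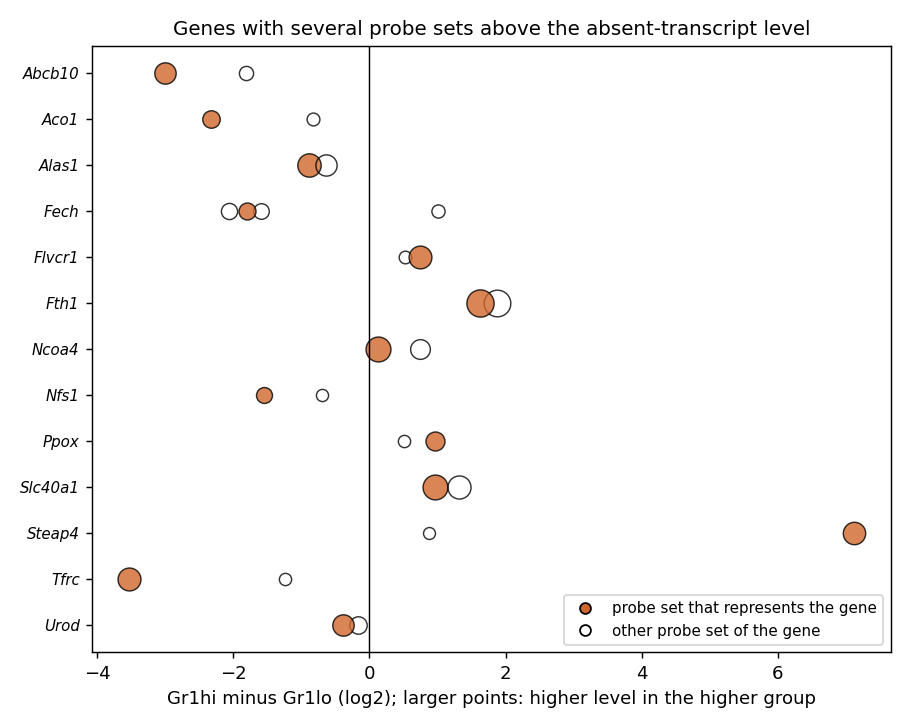
Gr1hi minus Gr1lo difference (log2, horizontal axis) of each probe set above the absent level for 13 genes with several such probe sets; filled points represent the gene in the text and larger points have a higher level. All points of a gene lie on the same side of zero except for Fech, where 3 lie left and 1 right.

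Arrays within a group differed in an ordered way. Gr1lo replicate 2 had the lowest Gr1lo value in 11 of the 13 genes that rose and the highest in 10 of the 13 that fell, so it lay furthest from Gr1hi. Gr1lo replicate 3 had the lowest Gr1lo value in 11 of the 13 that fell. Leaving out any single array left all 26 calls in place except that of Urod.

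Markers of other cells were read on the same arrays. Of 22 erythroid marker genes listed, 16 had a probe set and 10 were tested; 0 rose and 1 fell in limma's test, and 1 rose and 1 fell without both replicate 3 arrays. That gene was Hemgn, which fell from 4.60 ± 0.15 to 2.64 ± 0.34, and Hba-a1, Klf1, Gata1, Ermap, Rhag, Trim10 and Kel were at the absent level on all 6 arrays. The erythroid markers summed on the linear scale to between 131 and 134 in Gr1lo and between 108 and 122 in Gr1hi. Hemgn is part of these sums and the median difference of the 10 tested markers was 0.04, so the sums do not stand for the list. Tal1, which other blood cells also express, was at 4.45 ± 0.13 in Gr1lo and 4.27 ± 0.24 in Gr1hi, above the absent level in both groups.

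Of 14 macrophage marker genes, 7 were tested, 3 rose and 1 fell. Vcam1, found on the macrophages of erythroid islands, fell from 10.31 ± 0.29 to 5.05 ± 0.39, and Adgre1 rose from 4.58 ± 0.09 to 7.57 ± 0.28. The macrophage markers summed to between 1173 and 1664 in Gr1lo and between 257 and 350 in Gr1hi. Vcam1 made up most of the Gr1lo sum, and without it the sums were 91.8 to 104 in Gr1lo and 230.1 to 320 in Gr1hi, the opposite order. Cd163, C1qc, Vsig4, Timd4, Mertk and Axl were at the absent level on all 6 arrays. Of 10 monocyte markers tested, 2 rose and 1 fell, with sums of 1035 to 2200 in Gr1lo and 3856 to 4904 in Gr1hi. Csf1r rose from 7.77 ± 1.07 to 11.78 ± 0.08 and made up most of the Gr1hi sum. Cd74 also rose, by 1.44, and F13a1 fell by 0.98, so the sums do not stand for the list. The replicate 3 arrays stood apart in some of these genes: Ccr2 was at 6.07 and 7.29 there and at most 4.91 on the others, and Ly86 at 6.77 and 6.68 against at most 5.26. Mcpt8, a basophil protease, was at 7.44 and 7.74 against at most 5.47. Of the neutrophil markers, 4 of 12 tested rose and 2 fell, and of the basophil and mast cell markers 0 of 6 rose and 2 fell. Of the megakaryocyte markers 1 of 4 rose and 1 fell, and of the B cell markers 3 of 7 rose and 1 fell. Without both replicate 3 arrays the counts higher and lower were 3 and 2 for macrophage, 3 and 3 for monocyte, 6 and 2 for neutrophil and 1 and 2 for basophil and mast cell markers, and 1 and 1 for megakaryocyte and 2 and 1 for B cell markers. Centring the arrays on the median of tested genes took the median difference of all genes to 0.70, and 65.5% of them were then higher. So were 9 of the 10 erythroid, 6 of the 7 macrophage, 5 of the 10 monocyte and 10 of the 12 neutrophil markers. The same centring gave 3 of 6 basophil and mast cell, 3 of 4 megakaryocyte and 6 of 7 B cell markers higher. The part of these cells in the differences of the heme and iron genes was not tested.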

How the data were processed

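The authors deposited log2 values per probe set, and the submitters' processing notes name GCRMA as the tool; its version is not given in the sources used here. Total RNA (100 ng per sample, per the labels' protocols) was hybridised to 3' expression arrays, 6 in all. The table had 45101 probe sets and no detection calls, values from 0.87 to 15.01 and array medians from 2.86 to 2.94. Background subtraction and equalised distributions compress dim probe sets and fix each array's overall level, so that shifts shared by most genes are not measured.

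Genes were named from platform annotation: 34945 probe sets had 1 symbol, 932 several (not used), 9160 none, and 64 were controls. Of 18193 genes, 18032 matched RefSeq (GRCm38.p6) and 0 symbols changed. Each gene took its probe set with the highest mean, and was tested where its value passed the array's 40th percentile on 3 or more of the 6 arrays (12732 genes tested, 5461 set aside). The comparison used limma 3.58.1 (R 4.3.3), with lmFit, then eBayes with its trend option (two-sided, Benjamini-Hochberg over all tested genes, 4 residual and 5.1 prior degrees of freedom); the fit was tested on simulated data. Python 3.11.15, pandas 2.3.3 and matplotlib 3.10.9 made summaries and figures. The 17 alternatives covered filters, probe sets, trend, scaling (including 18 hybridization control probe sets), the replicate block, a 1.5-fold test and arrays left out. A pseudocount did not apply.

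The 35 genes and all lists were chosen with earlier results of these data known. All 35 are accounted for; each array's value is given for those that passed with a difference of at least 1 or whose probe sets disagreed, with some others chosen after their values were seen, and of each other list up to 4 genes per direction with the smallest p. Promoter motifs were searched in the 250 bases before each RefSeq start site.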

Additional observations from a re-analysis of the deposited data

How the results depend on the processing

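Of the 26 heme and iron genes that passed, 18 kept their call under each of the 17 alternatives in which they were tested; Alas1, Cpox, Flvcr1, Ireb2, Ppox, Slc25a28, Urod and Uros lost it in at least 1. The count of 13 higher became 20 with arrays centred on the median of tested genes. The count of 13 lower became 8 with each gene's second probe set, where 25 genes were tested. Genes with a single probe set kept it in that alternative, so their calls were not checked on another probe set. Among the 64 further genes, the same centring gave 41 calls in place of 25 and 27 higher in place of 5, where 65.5% of all tested genes were higher. Centring on the hybridization controls and the test against a 1.5-fold change each gave 3 higher. Median centring turned Urod to 0.28 and Hmox2 to 0.58. Slc11a2, Steap3, Ncoa4, Abcb6 and Cp, which had missed the threshold, were then called higher, at 0.69, 0.68, 0.80, 0.81 and 0.69. Median centring adds a shift to every gene, also to Slc11a2, which lay at the absent level on all arrays. Leaving out 1 array at a time gave 25 to 26 calls, 13 higher and 12 to 13 lower among the heme and iron genes, and 23 to 26 calls, 4 to 7 higher and 19 to 20 lower among the further genes. The 1.5-fold test left 18 of the 26, 9 in each direction. With the replicate number as a block the same counts came out for the heme and iron genes (26 calls) and 27 for the further genes. Of the monocyte markers 4 were then higher and 3 lower in place of 2 and 1. Deviations of same-numbered arrays correlated at 0.17, 0.0043 and 0.15 for replicates 1, 2 and 3. The highest correlation between unlike numbers was 0.0436, of Gr1lo replicate 2 with Gr1hi replicate 1. The replicate 3 arrays of both groups also shared high Xist, Ccr2, Ly86 and Mcpt8. The labels do not pair the samples, and a shared source of same-numbered samples was not tested. Genes at the absent level (Slc11a2 and Alas2 on all arrays, Hfe in Gr1hi) have no measured level there, and the number of arrays limits the precision of the rest.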

Other observations

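Enzymes and electron carriers that hold iron, mostly in heme or iron-sulfur clusters, were read as a further list of 24 genes. Of the 20 tested, 12 fell and 2 rose (70%, with a median difference of -0.94), where 56.4% of all tested genes passed and 31.8% were lower. After centring on the median of tested genes 10 were lower and 8 higher, against 18.2% and 65.5% of all tested genes, with a median of -0.26. Rrm2, the iron-containing small subunit of ribonucleotide reductase, fell from 12.88 ± 0.03 to 9.54 ± 0.10 (SD, n = 3 per group, limma adjusted p = 1.10e-07). Mpo, the heme peroxidase of primary granules, fell from 13.91 ± 0.14 to 9.93 ± 0.59 (limma adjusted p = 1.22e-06). Among the iron-sulfur subunits of complex I, Ndufs8 and Ndufv1 fell by 1.39 and 1.53 (limma adjusted p = 2.11e-06 and 2.25e-06) and Ndufs7 fell by 0.70 (limma adjusted p = 2.48e-04). Ndufs1 did not pass, with a difference of -0.08 (95% interval -0.34 to 0.18, limma adjusted p = 0.577).

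The exceptions were Ptgs2 and Tet2. Ptgs2, the heme enzyme that starts prostaglandin synthesis, was at the absent level in Gr1lo and at 6.07 ± 0.73 in Gr1hi. In the values as deposited it was at least 9.84-fold higher in Gr1hi (limma adjusted p = 8.00e-06). Tet2, an iron-dependent DNA demethylase, rose by 0.78 (limma adjusted p = 8.60e-04). The subunits of the heme-bearing NADPH oxidase membrane core did not pass the test: Cybb was at 13.67 ± 0.11 and 13.71 ± 0.06, and Cyba at 13.30 ± 0.10 and 13.43 ± 0.08.

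Of the other motifs searched before start sites, on either strand, the antioxidant response element core TGACNNNGC was in 6 of 42 windows (14.3%), those of Blvra, Flvcr1, Hfe, Ncoa4, Nfs1 and Slc25a38, against 10.2% of all windows. The GATA factor motif AGATAA was in 2 of 42 windows (4.76%), those of Alas2 and Steap3, against 9.99%. The letters CCAAT were in 33.3% against 33.8%, the TATA box TATAAA in 14.3% against 12.4%, and the ETS factor motif GGAAGT in 21.4% against 19.7%.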
